A study of Mus musculus with 2 samples.

Results

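The enzymes that write, copy and remove cytosine methylation were followed at the RNA level in mouse embryonic stem (ES) cells of the line E14TG2a, grown in 2i/LIF. This medium blocks the MEK and GSK3 kinases, supplies leukaemia inhibitory factor and keeps the cells in the ground state of naive pluripotency. The 10 genes were chosen by symbol: the methyltransferases Dnmt1, Dnmt3a and Dnmt3b, their cofactor Dnmt3l, the hemimethylated-DNA binding proteins Uhrf1 and Uhrf2, the dioxygenases Tet1, Tet2 and Tet3, and the glycosylase Tdg. All 10 had a row among the 28592 genes of the table. The series holds 1 group, 2 replicates of these cells with no treated or control arm, so the values below describe levels within this state and carry no test between conditions. E14TG2a is an Hprt-deficient line, and beyond the line name the labels give no transgene or deletion. They also do not tell if each replicate came from its own culture, and their spread may be technical only. Levels are FPKM, the fragments of a gene per kilobase of its transcript and relative to all mapped fragments. They are therefore per length, which allows levels of different genes to be set side by side. Read depth is unknown. Values are given per replicate or as mean ± SD (n = 2).

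In mammals, methyl groups sit mostly on the cytosine of CpG pairs. DNMT1 copies the pattern to the new strand after replication, guided by UHRF1, which recognises CpG sites methylated on the old strand only. DNMT3A and DNMT3B place new methylation, with DNMT3L as a partner that has no catalytic activity of its own. The TET enzymes oxidise 5-methylcytosine stepwise, and TDG excises the most oxidised forms so that base excision repair can restore an unmethylated cytosine. Mouse ES cells in 2i/LIF are known for low genome-wide methylation compared with cells grown in serum. That difference is background here, since neither methylation nor serum-grown cells were measured.

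The cells carried the defining markers of their label. All 6 ES markers were detected, meaning an FPKM of at least 1 in both replicates, with means from 12.5 for Klf4 to 976 for Pou5f1. Among other cell types, 0 of 6 fibroblast feeder markers, 1 of 3 primed epiblast markers (Otx2, 3.74 ± 0.108) and 1 of 5 germ layer markers (T, 12.4 ± 0.733) were detected. The feeder markers summed to 0.242 in replicate 1 and 2.96 in replicate 2, with all 6 higher in replicate 2 and Postn and Dcn listed at 0 in replicate 1. The part of that difference in the values of the methylation genes was not tested, and the lowest of those genes, Tet3, was the only one near the level of these markers. The column totals of FPKM were 946498 and 928174.

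RNA of the methylation enzymes was dominated by the maintenance genes Uhrf1 and Dnmt1, with 56.5% and 17.3% of the summed FPKM. Uhrf1, Dnmt1 and Uhrf2 held the 3 highest places of the 10 genes, Tdg, Dnmt3b and Tet2 came next, and Tet1, Dnmt3l, Dnmt3a and Tet3 closed the order. Of the 10 genes, 9 were detected, whereas 39.4% of all genes and 50.6% of the protein-coding genes typed by RefSeq were. Tet3 was the exception. The median of the 10 means was 19.0, against 0.233 for all genes and 12.7 for detected genes. In these bulk libraries, fewer cells expressing a gene and less RNA per cell cannot be told apart.

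**Figure D1:**
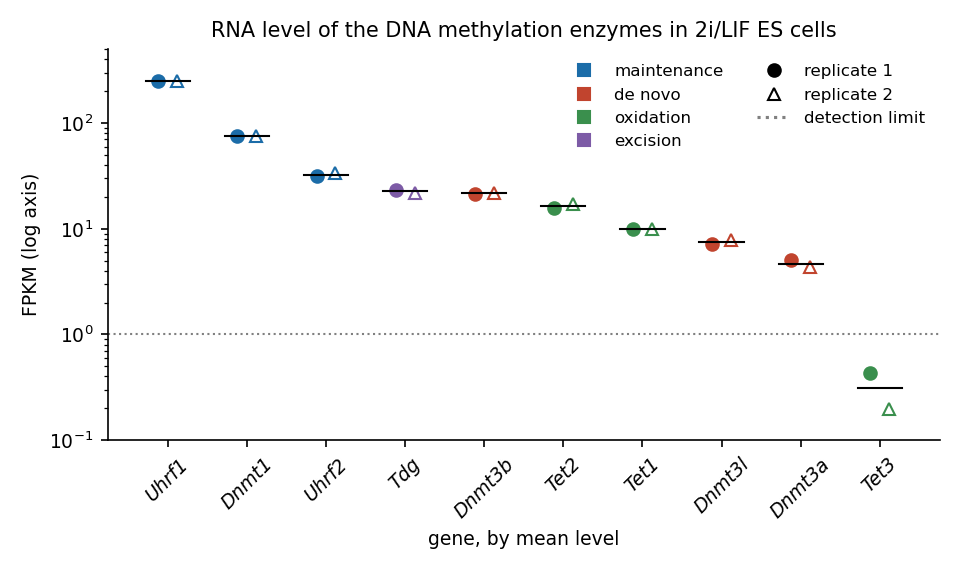
FPKM of each gene (log axis) in replicate 1 (filled circles) and replicate 2 (open triangles), with the mean as a black bar, colours for the step each gene serves and a dotted line at the detection limit of 1. Uhrf2 shares the colour of Uhrf1 as its paralog. The levels run from 249 for Uhrf1 to 0.314 for Tet3, and Tet3 is the only gene under the line.

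Uhrf1 (ENSMUSG00000001228.13, GRCm38 chromosome 17, 56303337 to 56323486) stood at 249.1 and 249.6 in replicates 1 and 2. Its mean of 249 placed it above 96.2% of detected genes, with 433 genes of the whole table higher. Dnmt1 (ENSMUSG00000004099.14, chromosome 9, 20907206 to 20959888) had 76.2 in both replicates and lay above 87.7% of detected genes. Uhrf2 (ENSMUSG00000024817.12, chromosome 19, 30030430 to 30093726), a paralog of Uhrf1 that does not replace it in maintenance, had 31.4 and 33.7. Uhrf1 exceeded Uhrf2 by 7.94-fold in replicate 1 and 7.42-fold in replicate 2, a log2 ratio of 2.94 ± 0.07, and made up 88.5% ± 0.497 of the Uhrf sum. Uhrf1 alone accounted for 56.5% ± 0.173 of the summed FPKM of the 10 genes.

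In the de novo arm Dnmt3b was the leading gene. Dnmt3b (ENSMUSG00000027478.14, chromosome 2, 153649411 to 153687730) had 21.5 and 21.6, above 64.0% of detected genes. Dnmt3l (ENSMUSG00000000730.12, chromosome 10, 78042287 to 78063622) had 7.23 and 7.89. Dnmt3a (ENSMUSG00000020661.14, chromosome 12, 3801559 to 3914443) had 5.01 and 4.37, and was the lowest detected gene of the 10, above 25.7% of detected genes. The replicate values of these 3 genes did not overlap one another. Dnmt3b was 4.30-fold and 4.95-fold higher than Dnmt3a in replicates 1 and 2, a log2 ratio of 2.21 ± 0.14. Of the summed FPKM of Dnmt3a, Dnmt3b and Dnmt3l, Dnmt3b held 63.8% ± 0.0510, Dnmt3l 22.3% ± 1.32 and Dnmt3a 13.9% ± 1.37. Dnmt1 RNA exceeded the sum of both catalytic de novo enzymes by 2.87-fold and 2.93-fold (log2 ratio 1.54 ± 0.02).

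Among the oxidases, Tet2 was higher than Tet1, and Tet3 was close to the median of the whole table. Tet2 (ENSMUSG00000040943.11, chromosome 3, 133463677 to 133545136) had 15.7 and 17.1, above 56.9% of detected genes. Tet1 (ENSMUSG00000047146.14, chromosome 10, 62804570 to 62887469) had 9.94 and 9.90, above 43.2% of detected genes. Tet3 (ENSMUSG00000034832.14, chromosome 6, 83362373 to 83457208), the form known for oxidising the paternal genome in the mouse zygote, had 0.433 and 0.195. Its mean exceeded 52.1% of all genes. The log2 ratio of Tet1 to Tet2 was -0.66 in replicate 1 and -0.79 in replicate 2, and the shares of the Tet sum were 61.6% ± 1.92 for Tet2, 37.3% ± 1.25 for Tet1 and 1.19% ± 0.668 for Tet3. Tet2 exceeded Tet3 by 36.2-fold in replicate 1 and 87.6-fold in replicate 2, so the size of that gap rests on the replicate while its direction does not.

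Tdg (ENSMUSG00000034674.17, chromosome 10, 82629814 to 82650799) had 23.2 and 21.9, above 65.1% of detected genes. Set against each other, the 3 Tet genes summed to 26.1 and 27.2, and the catalytic genes Dnmt1, Dnmt3a and Dnmt3b to 102.7 and 102.2. The log2 ratio of the Tet sum to the Dnmt sum was -1.94 ± 0.05. Without Dnmt1 the balance was near even in RNA, since Dnmt3a and Dnmt3b together had 26.5 and 26.0. These ratios compare transcripts, and protein or enzyme activity was not measured.

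The order of the levels was clear for most neighbours. Neighbours were called apart when their replicate values did not overlap and the log2 ratio of their means exceeded the gap between replicates that 95% of genes within 2-fold of that level stay under. By this rule 8 of 9 neighbouring pairs were apart. The pair that was not was Tdg and Dnmt3b, whose log2 ratio of 0.07 was under the limit of 0.27 at that level. The pair of Tet1 and Dnmt3l passed narrowly, at 0.39 against a limit of 0.38, and in replicate 2 alone it did not pass (0.33 against 0.37). With the stricter 99th percentile of the same spread, 5 pairs were apart, and Dnmt3b and Tet2, Tet1 and Dnmt3l, and Dnmt3l and Dnmt3a were no longer separated. Errors in the transcript lengths assumed for each gene are not covered by the spread between replicates.

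For all 10 genes the gap between replicates was under the limit that 95% of genes at their own level stay under. The smallest gap was that of Dnmt1, with a log2 ratio of replicate 2 to replicate 1 of 0.00017, and 99.8% of the 1943 genes within 2-fold of its level had a larger gap. Uhrf1, Dnmt3b and Tet1 were also nearly equal in both replicates, at 0.0026, 0.0069 and -0.0059. The order of gaps this small rests on the scaling between libraries, which is not stated. The median log2 ratio of detected genes was itself -0.0039, so the place of Dnmt1 holds for the deposited values only. Tet3 had the widest gap, -1.15, but genes at so low a level spread up to 1.95 in either direction at the 95% limit, and 15.1% of them had a wider gap. Dnmt3a, at -0.20 against a limit of 0.49, was the next widest. The gap was below the median of genes at the same level for 4 of the 10 genes, and 6 of the 10 were higher in replicate 2.

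**Figure D2:**
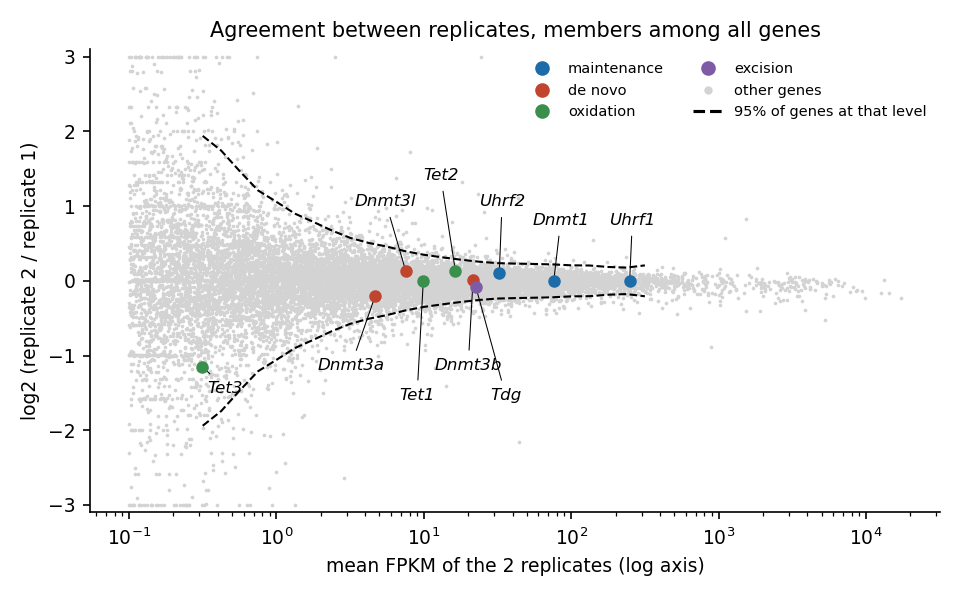
Log2 ratio of replicate 2 to replicate 1 against mean FPKM (log axis) for the 10 genes (coloured by step) and for other genes with a mean of at least 0.1 (grey, ratios beyond 3 drawn at 3), with dashed lines at the gap that 95% of genes within 2-fold of a level stay under. Uhrf2 shares the colour of Uhrf1 as its paralog. All 10 genes lie between the dashed lines, with Tet3 at -1.15 the furthest from 0.

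Several of these loci share sequence with other annotated genes on RefSeq (GRCm38). The span of Dnmt3l overlaps that of Aire, the thymic transcription factor gene, which had 3.17 and 2.10. Tdg overlaps Glt8d2 at 0.103 and 0.173. The long non-coding genes Dnmt3aos, inside Dnmt3a, and B230319C09Rik, inside Tet3, had 0.0441 and 0.0220, and 0.109 and 0.0876. Aire was below Dnmt3l, and B230319C09Rik below Tet3, in both replicates. The libraries were stranded, but the sources used here do not state if the quantification took strand into account, so reads in shared stretches may have been split between partners. The long non-coding genes Gm51805, overlapping Tet1, and Gm31623, inside Dnmt3a, had no value matched by symbol. Reads from them may have been assigned to Tet1 and Dnmt3a. The Tet1, Tet3, Dnmt3a, Dnmt3l and Tdg levels, and ratios made from them, carry that uncertainty.

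Promoter sequence was read from RefSeq windows (GRCm38.p6) as a feature that the choice of the genes did not use. All 10 genes matched, with 17 windows in all, since Dnmt1, Dnmt3a and Dnmt3l have 3 annotated starts each and Uhrf1 has 2. In the 250 bases before the start, the ratio of observed to expected CpG reached 0.6, a usual lower bound for CpG-rich sequence, in at least 1 window of 8 of the 10 genes. The exceptions were Dnmt3l, with ratios of 0.272, 0.250 and 0.135 at its 3 starts, and Tet3, at 0.562 in its only window. That Tet3 window (83441679 to 83441928, minus strand) lies inside the gene's RefSeq span, which ends at 83457208. Sequence before the outer end of the Tet3 span was therefore not read. The windows of Tet2 and Dnmt3a also lie inside the spans of their genes. Among genes of the table with a window, 74.5% of 8628 detected genes and 23.0% of 10200 genes not detected had a CpG-rich window, so 8 of 9 for the detected enzymes is close to what detected genes show in general. The window of Tet2 had the highest ratio, 1.19, with 51 CpG pairs in 250 bases, above 99.3% of the 32851 windows. The window of Tet3, the gene at the lowest level of the 10, was above 63.5% of windows, and Dnmt3l was detected with CpG-poor windows only. The gene-level values do not say which start was used.

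Stretches before the first annotated start are shown for genes that differ in CpG content there. They are those of Uhrf1 (chr17:56303087-56303336, plus strand), Dnmt1 (chr9:20959889-20960138, minus strand), Dnmt3l (chr10:78042037-78042286, plus strand) and Tdg (chr10:82629588-82629813, plus strand). Each is written 5′ to 3′ in the direction of the gene, from RefSeq on GRCm38.p6, with CpG pairs in capitals. The Dnmt3l stretch lies inside the RefSeq span of Aire (78030022 to 78043610), so it is sequence of that gene as well.
Uhrf1: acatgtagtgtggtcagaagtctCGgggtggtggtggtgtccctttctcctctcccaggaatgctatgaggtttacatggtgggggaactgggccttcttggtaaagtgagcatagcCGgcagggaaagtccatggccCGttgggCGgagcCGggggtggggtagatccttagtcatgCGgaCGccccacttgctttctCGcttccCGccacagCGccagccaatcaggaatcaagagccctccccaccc
Dnmt1: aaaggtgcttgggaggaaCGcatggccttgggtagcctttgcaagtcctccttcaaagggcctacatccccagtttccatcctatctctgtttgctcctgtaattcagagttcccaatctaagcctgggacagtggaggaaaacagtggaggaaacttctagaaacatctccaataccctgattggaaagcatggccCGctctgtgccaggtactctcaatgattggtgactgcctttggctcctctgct
Dnmt3l: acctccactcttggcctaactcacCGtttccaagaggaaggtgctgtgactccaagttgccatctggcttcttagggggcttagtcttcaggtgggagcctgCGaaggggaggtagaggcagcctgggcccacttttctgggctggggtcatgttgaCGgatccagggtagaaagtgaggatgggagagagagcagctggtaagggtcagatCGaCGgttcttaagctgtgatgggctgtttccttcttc
Tdg: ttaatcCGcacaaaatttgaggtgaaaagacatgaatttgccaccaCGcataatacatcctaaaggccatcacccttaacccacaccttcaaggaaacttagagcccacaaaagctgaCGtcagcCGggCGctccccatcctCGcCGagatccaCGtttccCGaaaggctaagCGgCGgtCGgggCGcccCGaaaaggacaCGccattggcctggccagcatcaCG
The stretch of Dnmt1 before its farthest upstream start holds 2 CpG pairs and that of Dnmt3l holds 5, against 10 for Uhrf1 and 16 for Tdg in a slightly shorter stretch of 226 bases. The other starts differed: Dnmt1 had ratios of 0.126, 0.380 and 0.890 from the farthest upstream start to the last, and Uhrf1 had 0.453 and 1.004. On either strand, the letters CCAAT occurred 4 times in the Dnmt1 stretch and once in those of Uhrf1 and Tdg, and not in that of Dnmt3l. CCAAT was present in 6 of the 17 windows, against 33.8% of all windows. The letters GGGCGG were present in 12 of the 17 windows, against 32.7% of all windows, and their matches shared bases with a CCAAT match in 0 of the 17. However, the 2 first windows of Dnmt3a overlap each other, and windows of 1 gene are not independent. GGGCGG also holds a CpG pair itself, and CpG-rich windows were more common among detected genes. The share with GGGCGG among detected or CpG-rich genes was not computed, so an excess particular to these enzymes was not tested. A match is a description of the sequence, and binding was not measured.

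**Figure D3:**
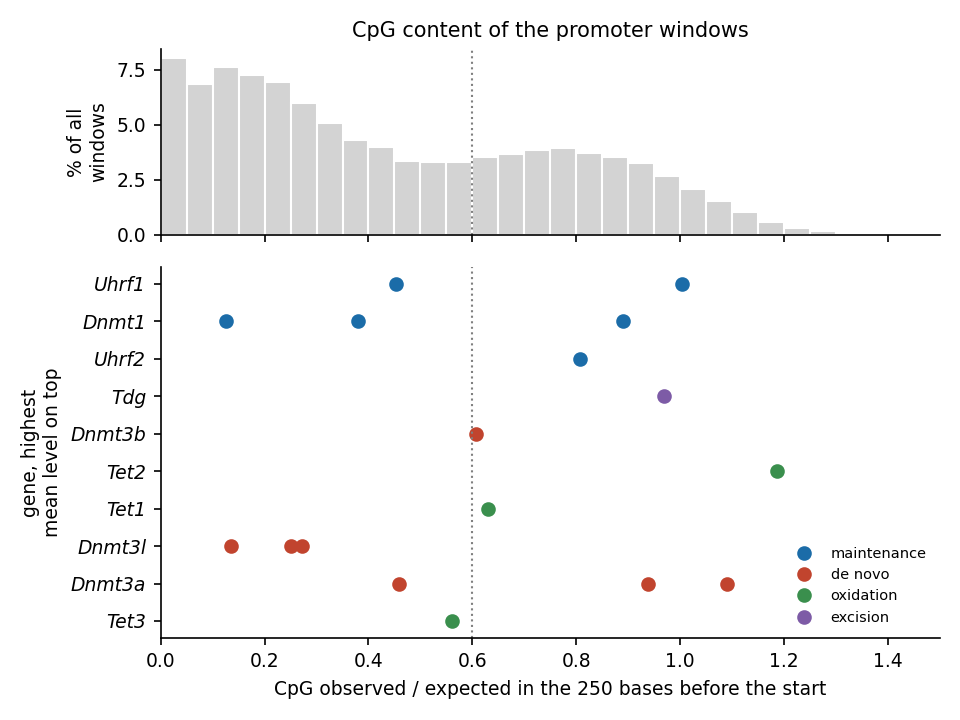
Ratio of observed to expected CpG pairs in the 250 bases before each annotated start: above, the share of all 32851 windows in bins of the ratio, and below, each window of the 10 genes, ordered by RNA level with the highest on top. Dotted lines mark a ratio of 0.6. Dnmt3l has no window to the right of the line, and Tet3 lies just left of it at 0.562.

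The genes around the cycle were read from 7 lists, of which 72 of 73 genes were measured and 58 detected. All counts of detected genes below stand beside 39.4% of all genes and 50.6% of protein-coding genes. By list, the share detected ran from 42.9% for the germline genes to 100% for the regulators and base excision repair. Of the regulators that guide or limit methylation, 13 of 13 measured were detected, with a list median of 41.4. The co-repressor Trim28, which holds methylation at imprints with Zfp57, had 568 ± 12.1, the replication clamp Pcna 393 ± 1.99, and Hells, a remodeller needed for normal methylation, 183 ± 4.06. The lowest were the histone methyltransferase gene Ehmt1 at 14.02 ± 0.429 and the histone demethylase gene Kdm1b at 7.21 ± 0.550. Dnmt3c, a rodent de novo enzyme of the male germ line, was not analysed here.

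The list of methyl-CpG readers also holds Mbd3, Mbd5 and Mbd6, relatives that do not bind methylated CpG in mammals. Its median was 7.50, and 9 of 10 genes were detected. Mbd3, a subunit of the NuRD complex, had 29.5 ± 3.13, the zinc finger reader Zbtb38 had 19.8 ± 1.80, and the glycosylase Mbd4 had 11.0 ± 0.365. Zbtb4 at 1.37 ± 0.370 and Mbd6 at 0.630 ± 0.104 were the lowest. Base excision repair, which completes demethylation after Tdg, had 11 of 11 genes detected and a median of 22.3. It was led by Parp1 (228 ± 20.3), the abasic-site nuclease Apex1 (213 ± 2.92) and the uracil glycosylase Ung (47.3 ± 2.67). The glycosylases Neil1 (4.26 ± 0.0858) and Neil3 (2.52 ± 0.0401) were lowest, so Tdg at 22.6 ± 0.943 stood below Ung and above both.

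Deaminases and Gadd45 genes, proposed as another route to demethylation, had 5 of 7 detected and a median of 5.55. Apobec3 had 30.7 ± 1.05, Apobec2 25.3 ± 0.472 and Gadd45b 16.3 ± 0.970, while Gadd45g was at 0.271 ± 0.0427. Genes that supply or bind Tet enzymes had 8 of 9 detected and a median of 40.7. Idh2 (189 ± 8.31) and Idh1 (146 ± 6.29), which make the Tet cosubstrate 2-oxoglutarate, and the Tet-binding transferase gene Ogt (82.8 ± 4.65) were highest. D2hgdh, whose enzyme clears 2-hydroxyglutarate, was at 1.40 ± 0.253, and Cxxc4 was listed at 0 in both replicates.

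The S-adenosylmethionine cycle provides the methyl donor, and 6 of its 8 genes were detected, with a median of 22.5. Ahcy, which removes the inhibitory product of methyl transfer, had 283 ± 21.7. The donor synthase gene Mat2a had 133 ± 4.66, and Mat2b, the gene of its regulatory subunit, had 84.8 ± 0.986. Gnmt (0.369 ± 0.122) and Mat1a (0.0303 ± 0.0184) were the lowest of the list. Germline genes known to be silenced by promoter methylation in somatic mouse cells were mixed, with 6 of 14 detected and a median of 1.03. Their share of 42.9% stands beside 39.4% of all genes and 50.6% of protein-coding genes. Rpl10l (243 ± 11.3), the meiotic gene Hormad1 (24.7 ± 1.97) and the germ cell RNA-binding factor gene Dazl (16.4 ± 0.311) were the highest, and Asz1 (0.161 ± 0.0839) and Tdrd1 (0.0471 ± 0.0197) the lowest. Rpl10l is a retrocopy close in sequence to a ribosomal protein gene, so the reads assigned to it are uncertain.

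**Figure D4:**
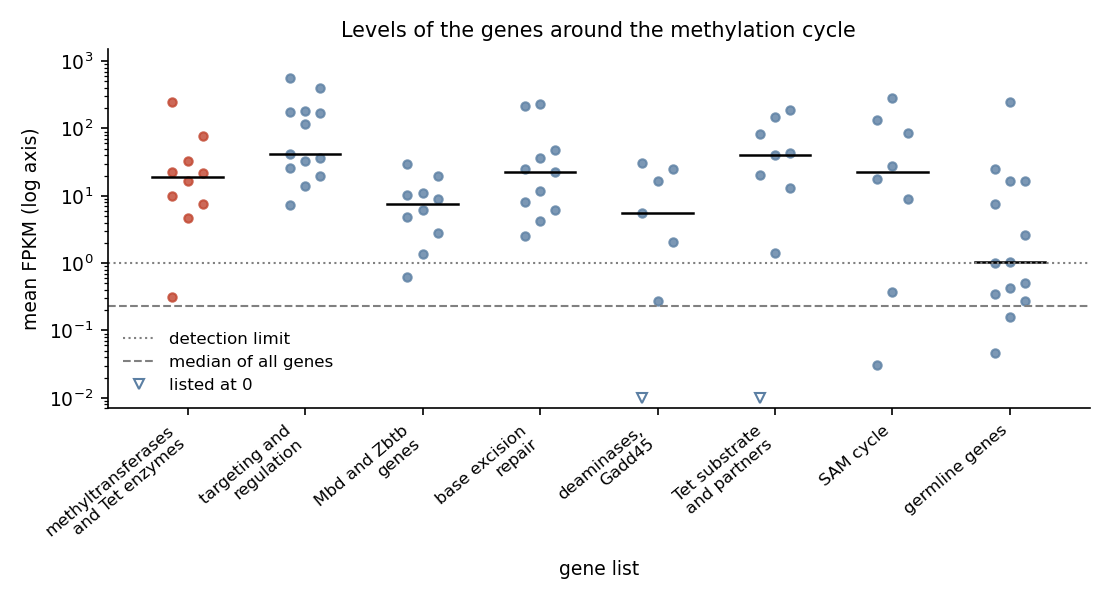
Mean FPKM (log axis) of each measured gene in the set of 10 enzymes (red) and in 7 lists of genes around the methylation cycle (blue), with list medians as black bars, the detection limit (dotted) and the median of all genes (dashed). The list medians run from 41.4 for the regulators to 1.03 for the germline genes, with 19.0 for the enzymes, and open triangles mark genes listed at 0, such as Cxxc4.

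Genes closest in level to 4 of the enzymes were found by the distance of log2 FPKM over the 2 replicates among 17875 other named genes above 0 in both. They were Polr1c and Uimc1 for Uhrf1, Pip4p1 and D230025D16Rik for Dnmt1, Cpt1a and Capsl for Dnmt3b, and Flot1 for Tet1. The distances of these genes ran from 0.0054 for Cpt1a to 0.018 for D230025D16Rik. With 2 libraries of 1 state, such a match says only that the levels were equal.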

How the data were processed

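RNA was measured in 2 replicates of E14TG2a ES cells in 2i/LIF. Per the labels' protocols, total RNA was extracted with TRIzol, depleted of ribosomal RNA and made into stranded libraries. The authors deposited FPKM per gene and replicate. The tools named, per the submitters' processing notes, are CASAVA, TopHat2 and Cufflinks, and the builds are mm10 and GRCm38. The sources used here state no versions, annotation, use of strand or scaling between libraries. Depth in reads is unknown, so no counting interval was computed, and a value listed at 0 can be a failed estimate.

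Stable gene identifiers were matched to symbols for 28256 of 28592 genes. Columns were assigned by the sample descriptions. Means, SDs, log2 ratios without a pseudocount, percentiles and the spread between replicates within 2-fold of a level were computed in Python 3.11.15 with numpy 2.4.6 and pandas 2.3.3. No test was run, since there is 1 group. The members and lists were chosen with earlier results of these data known. The named genes are all 10 members, the 3 highest and 2 lowest of each list, and the 2 nearest in level to Uhrf1, Dnmt1, Dnmt3b and Tet1. Of these, 2 genes are not reported here. Gene spans and promoter windows are RefSeq's, matched by symbol. The alternatives were pseudocounts of 1 and 0.1, detection limits of 0.1, 0.5 and 5, rescaling to TPM, centring, other settings of the spread rule and leaving out each replicate.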

Additional observations from a re-analysis of the deposited data

How the results depend on the processing

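No direction reversed under any alternative run. With a pseudocount of 1 the log2 ratios moved by more than 1 SD for Dnmt3b over Dnmt3a (1.99), Dnmt1 over both catalytic Dnmt3 genes (1.45), Tet2 over Tet3 (3.73) and the Tet sum over the Dnmt sum (-1.83). This follows from the constant, which weighs most on low genes. With a pseudocount of 0.1 all 6 ratios stayed within 1 SD. Leaving out each replicate gave a log2 ratio of 5.18 to 6.45 for Tet2 over Tet3, the widest of the 6. The median percentile of the 10 genes was 84.4 among all genes and 75.2 among genes above 0 in both replicates, which takes fewer low genes as the comparison. Neighbouring pairs called apart numbered 7 and 8 with 1 replicate left out and 5 with the 99th percentile of the spread, against 8. The number of detected members ran from 8 to 10 over the detection limits, and that of listed pathway genes from 50 to 68. Rescaling to TPM left both counts unchanged. The CpG count of 8 genes was the same over whole 300-base windows, an alternative chosen after seeing the data. No paired analysis was possible because the series has 1 group. With 2 libraries and no read depth, SDs are imprecise, and Tet3 is the value most limited by its low level.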
